A study of Mus musculus with 6 samples.

Results

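The 8 genes described here are used as markers of brown fat and its heat production: Ucp1, Cidea, Cox8b, Cox7a1, Elovl3, Ppargc1a, Prdm16 and Plin5. They were taken by name from a table of read counts for 54532 genes, and each name matched 1 row. The table came from RNA sequencing of whole mouse abdominal aorta at day 7 after an aneurysm, a widening of the artery, had been induced. Libraries from Olfr2 knockout mice (KO) were compared with libraries from wild type mice (WT), 3 of each. Olfr2 encodes an olfactory receptor. The sources used here do not state the strain, the age, how the aneurysm was induced or how many animals gave a library. A p-value therefore covers only the spread among these 6 libraries. That spread exceeded counting error in every pair (chi-square of 25.6 to 81 per degree of freedom). Whether it is spread among single animals is not stated.

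Brown adipocytes burn fatty acids for heat. Noradrenaline from sympathetic nerves acts on beta-adrenergic receptors, lipid droplets release fatty acids, and the mitochondrial carrier UCP1 lets protons return without making ATP. Mouse vessels carry a sleeve of perivascular fat that can be brown, white or mixed, and white depots can gain brown-like beige cells. Whole tissue was sequenced, so a higher level from more cells of a type and a higher level from more RNA per cell cannot be told apart.

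Totals ran from 17248918 to 21872027 gene counts per library. Olfr2 had 0 reads in all 6 libraries, which allows up to 3 reads or 0.14 to 0.182 CPM (counts scaled to the library total, with TMM factors), so the targeted gene does not check the genotype labels. All 8 smooth muscle markers were present in every library, as the tissue label says. Over the 16237 genes that passed a filter on low counts, edgeR's quasi-likelihood test called 2 at an adjusted p under 0.05, both higher in KO and neither of them one of the 8. The following features of single libraries touch the results below: KO replicate 2 was high in Ucp1 and Cidea, KO replicate 3 held skeletal muscle transcripts, and WT replicate 3 was richer in fat cell transcripts than the other 2 WT libraries.

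Promoter sequence is shown for 3 genes that stand for the patterns found below: Ucp1, high in 1 KO library, and Cox8b and Plin5, higher in every KO library than in any WT library. Each is the 250 bases before the RefSeq start on GRCm38.p6, read 5′ to 3′ on the gene's strand. Ucp1 is from chr8:83290098-83290347 (plus strand), Cox8b from chr7:140900447-140900696 (minus strand) and Plin5 from chr17:56117549-56117798 (minus strand, the first of its entries). Capitals mark AGGTCA, the nuclear receptor half-site, TGACG, the cAMP response half-site, and CAGCTG, an E-box bound by muscle factors, on either strand.
Ucp1: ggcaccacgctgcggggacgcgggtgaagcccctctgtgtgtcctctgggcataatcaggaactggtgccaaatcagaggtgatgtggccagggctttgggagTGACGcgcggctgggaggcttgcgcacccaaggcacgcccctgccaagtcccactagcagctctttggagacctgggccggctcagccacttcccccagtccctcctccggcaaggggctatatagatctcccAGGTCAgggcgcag
Cox8b: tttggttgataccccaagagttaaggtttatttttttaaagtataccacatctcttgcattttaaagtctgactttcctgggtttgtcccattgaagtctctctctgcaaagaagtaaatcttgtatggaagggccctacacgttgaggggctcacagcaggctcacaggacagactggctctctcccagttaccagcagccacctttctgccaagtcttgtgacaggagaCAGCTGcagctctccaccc
Plin5: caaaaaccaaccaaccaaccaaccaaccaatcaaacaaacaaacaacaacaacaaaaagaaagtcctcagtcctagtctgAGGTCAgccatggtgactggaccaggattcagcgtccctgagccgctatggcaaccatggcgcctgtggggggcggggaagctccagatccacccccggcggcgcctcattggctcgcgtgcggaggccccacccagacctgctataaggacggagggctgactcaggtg
Ucp1 held 1 TGACG and 1 AGGTCA, Plin5 held 1 AGGTCA and Cox8b held 1 CAGCTG. Of 32851 promoter windows of this length, 14% held AGGTCA, 17.8% TGACG and 13% CAGCTG. Promoters were matched for 6 of the 8 genes, and of the other 3, Ppargc1a held 1 TGACG while Cox7a1 and Prdm16 held none of these motifs. No marked motifs overlap. The motifs were chosen after these sequences had been seen, and a match describes the letters only.

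Of the 8 genes, 6 were highest in KO replicate 2, while Ppargc1a and Prdm16 were highest in KO replicate 3. Ucp1, Cidea and Elovl3 are described first because KO replicate 2 stood furthest from the next library in them, a grouping made after their values were seen. Ucp1 (ENSMUSG00000031710, chromosome 8, 83290352 to 83298452 on GRCm38, the uncoupling carrier itself) had 10, 315 and 12 reads in KO replicates 1 to 3, against 1, 4 and 43 reads for WT in the same order. As CPM these were 0.574, 16.1 and 0.559 for KO, and 0.0544, 0.243 and 2.48 for WT. KO replicate 2 therefore held 80.5% of the Ucp1 signal summed over the 6 libraries, 6.51 times the next highest, which was WT replicate 3. The other 2 KO libraries lay below WT replicate 3, and the genotypes overlapped. The fitted log2 fold change of 2.63 (SE 1.41) did not pass (edgeR adjusted p = 0.536). Without KO replicate 2 it was -0.70 (SE 1.17), and without WT replicate 3 it was 5.25 (SE 1.86).

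Cidea (ENSMUSG00000024526, chromosome 18, 67343604 to 67367785), whose protein helps lipid droplets fuse and which is a classical brown fat marker, followed a similar course. It had 57, 537 and 24 reads in the KO libraries and 0, 0 and 34 in the WT libraries. Each KO library held Cidea while WT replicates 1 and 2 held none, but KO replicate 3 at 1.12 CPM lay below WT replicate 3 at 1.96 CPM. Its log2 fold change was 4.01 (SE 1.42, edgeR adjusted p = 0.322), and 1.73 (SE 1.30) without KO replicate 2. KO replicate 2 contributed 86.2% of the KO signal.

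Elovl3 (ENSMUSG00000038754, chromosome 19, 46131897 to 46135694), a fatty acid elongase strongly induced by cold in brown fat, was the scarcest of these genes. It had 1, 40 and 6 reads in KO and 0, 0 and 8 in WT, so KO replicate 2 was again highest and WT replicate 3 came next. This was the 1 member of 8 below the filter on low counts, and it was left untested. Without that filter its log2 fold change was 2.33 (SE 0.95, edgeR adjusted p = 0.342).

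**Figure D1:**
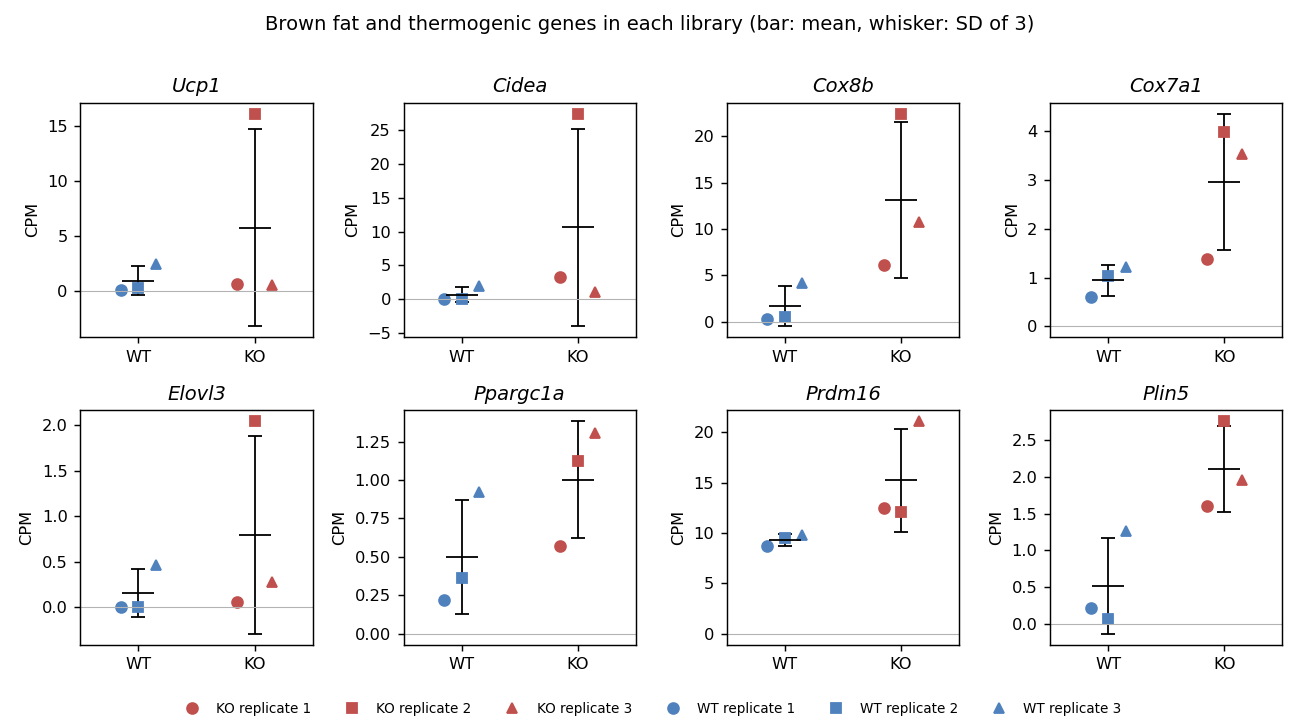
CPM (counts scaled to the library total, y axis) of the 8 genes in each library, WT in blue and KO in red, with the symbol giving the replicate; the bar is the mean and the whisker the SD of 3. Ucp1, Cidea and Elovl3 peak in KO replicate 2 (16.1 CPM for Ucp1), while Cox8b, Cox7a1, Prdm16 and Plin5 have all KO points above all WT points.

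Another 4 members stood higher in every KO library than in any WT library. Over all tested genes, 7.83% showed that order, and 0.0123% were called at an adjusted p under 0.05. None of the 7 members tested was called. At an unadjusted p under 0.05 there were 5, all higher in KO, where 5.23% of all tested genes were. The filter keeps a scarce gene through the libraries where it is high, so these counts describe the members and support nothing further.

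Cox8b (ENSMUSG00000025488, chromosome 7, 140898945 to 140900446) encodes the isoform of cytochrome c oxidase subunit 8 found in brown fat, heart and skeletal muscle. It had 107, 439 and 231 reads in KO and 6, 9 and 73 in WT, or 6.14, 22.5 and 10.8 CPM against 0.326, 0.546 and 4.2 CPM. The lowest KO library was 1.46 times the highest WT library, and WT replicate 3 stood well above the other 2 WT libraries. The mean was 13.1 ± 8.41 CPM for KO against 1.69 ± 2.18 CPM for WT (SD, n = 3 per genotype). The log2 fold change was 2.95 (SE 0.81, edgeR adjusted p = 0.208). Without WT replicate 3 it was 4.90 (SE 0.67) and Cox8b passed (edgeR adjusted p = 0.019), in a fit that called 0.45% of genes as higher in KO. Over the alternatives tried its adjusted p ran from 0.000151 to 0.478.

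Cox7a1 (ENSMUSG00000074218, chromosome 7, 30184144 to 30186078), the muscle and brown fat isoform of subunit 7a, differed less and varied less. It had 24, 78 and 76 reads in KO and 11, 17 and 21 in WT. KO replicate 1 at 1.38 CPM lay just above WT replicate 3 at 1.21 CPM, and the other 2 KO libraries were at 3.99 and 3.54 CPM. The log2 fold change was 1.65 (SE 0.46, edgeR adjusted p = 0.217), and it stayed between 1.39 and 1.99 as each library was left out. DESeq2 called it (log2 fold change 1.65, SE 0.51, adjusted p = 0.0431), the 1 member it called, where it called 1.09% of genes as higher. With no filter on low counts edgeR called Cox7a1, Cox8b, Cidea and Plin5, where it called 1.16% of genes as higher. Adjusted p-values over its alternatives ran from 0.0229 to 0.444.

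Plin5 (ENSMUSG00000011305, chromosome 17, 56111601 to 56117596) encodes perilipin 5, which coats lipid droplets and holds them to mitochondria in oxidative tissues. Its reads numbered 28, 54 and 42 in KO and 4, 1 and 22 in WT. The KO libraries lay close together at 1.61 to 2.76 CPM, while the WT libraries spread from 0.0606 to 1.27 CPM. The log2 fold change of 2.02 (SE 0.73) did not pass with all libraries (edgeR adjusted p = 0.335). Without WT replicate 3 it was 3.83 (SE 0.63) and passed (edgeR adjusted p = 0.041), in the fit that called 0.45% of genes as higher in KO. Over its alternatives the adjusted p ran from 0.041 to 0.586.

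The 2 transcriptional regulators of the set had the smallest fold changes of the 7 tested members. Prdm16 (ENSMUSG00000039410, chromosome 4, 154316125 to 154636873), a zinc finger protein that holds cells in the brown and beige fate, had 217, 237 and 453 reads in KO and 160, 157 and 170 in WT. WT libraries were tight at 8.7 to 9.78 CPM, KO replicates 1 and 2 stood at 12.5 and 12.1 CPM, and KO replicate 3 at 21.1 CPM. WT replicates 1 and 2 held 160 and 157 Prdm16 reads beside 0 reads of Cidea and Elovl3, and 1 and 4 of Ucp1. Prdm16 was thus present there with few or no reads of those genes, and which cells made it was not tested. Its log2 fold change was 0.71 (SE 0.23, edgeR adjusted p = 0.28), and 0.40 (SE 0.18) without KO replicate 3. Ppargc1a (ENSMUSG00000029167, chromosome 5, 51454250 to 51567726), which encodes PGC-1alpha, a coactivator that drives mitochondrial gene expression, had 10, 22 and 28 reads in KO and 4, 6 and 16 in WT. KO replicate 1 at 0.574 CPM lay below WT replicate 3 at 0.921 CPM, so the genotypes overlapped. Its log2 fold change was 1.01 (SE 0.58, edgeR adjusted p = 0.569), with 1.78 (SE 0.62) without WT replicate 3 and 0.64 (SE 0.59) without WT replicate 1.

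**Figure D2:**
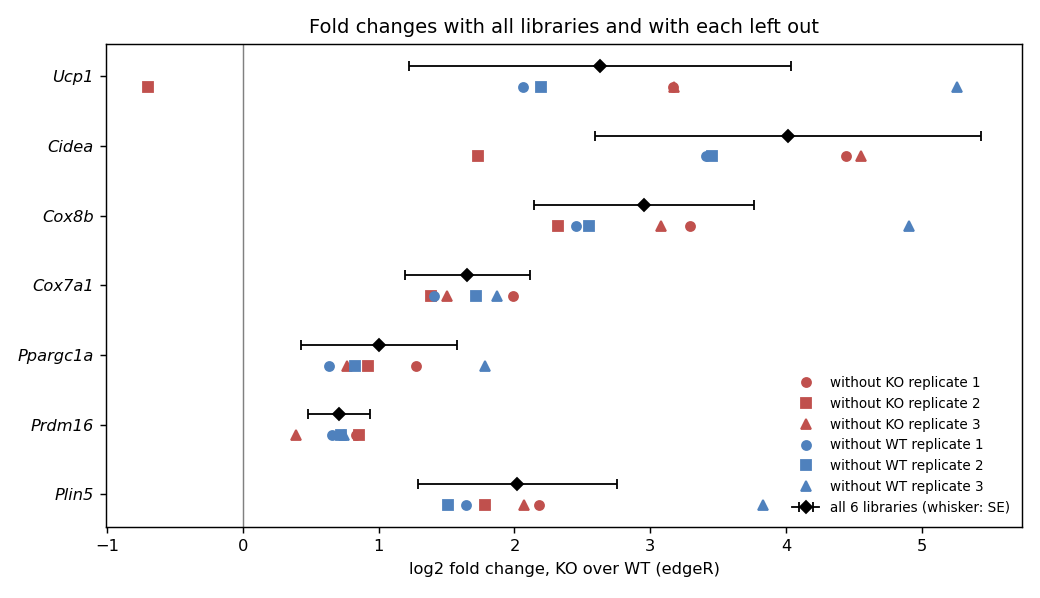
Log2 fold change of KO over WT (x axis) for the 7 tested genes, with black diamonds and SE whiskers for all 6 libraries and coloured symbols for fits that leave 1 library out. The value for Ucp1 moves from 2.63 to -0.70 without KO replicate 2, while Cox7a1 stays between 1.39 and 1.99; Cidea without WT replicate 3 is not drawn because both remaining WT libraries had 0 reads.

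Compared per length, as CPM per kilobase of exon (FPKM), Cox8b had the highest level of the 8 genes in both genotypes, at 36.5 ± 23.4 in KO and 4.70 ± 6.05 in WT (SD, n = 3 per genotype). In KO the order of FPKM levels then ran Cidea (9.52), Cox7a1 (5.55), Ucp1 (3.51), Prdm16 (1.63), Plin5 (1.01), Elovl3 (0.402) and Ppargc1a (0.152). The ranges of all neighbours in that order overlapped between libraries. Cox8b was highest in each KO library, but the place of Ucp1 rests on KO replicate 2, since it was at 0.351 and 0.342 FPKM in the other 2, below Prdm16 and Plin5. The WT rank of Cox8b rests on WT replicate 3 at 11.7 FPKM. In WT replicates 1 and 2 Cox8b was at 0.906 and 1.52 FPKM, below Cox7a1 at 1.12 and 1.93. By the WT means, Cox7a1 (1.77) came next and Prdm16 (1.0) followed it, the 1 pair of neighbours whose ranges did not overlap. Cidea and Ucp1 followed at 0.585 and 0.565 FPKM.

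Fat cell transcripts differed between the libraries in the same direction. The 12 white adipocyte markers, all detected in every library, summed to 3536, 2128 and 2128 CPM for KO replicates 1 to 3, against 446, 467 and 2058 CPM for WT in the same order. Their tested members numbered 12, of which 12 had a higher fitted level in KO (51.2% of all tested genes did), 0 were called and 7 had an unadjusted p under 0.05. Pparg, Cidec, Plin1 and Lipe among them stand in another list as well. The list's median log2 fold change was 1.27, against 0.0064 over all tested genes. Adipoq, which encodes the hormone adiponectin of fat cells, had 3328, 1789 and 2646 reads in KO and 371, 356 and 1675 in WT. KO replicate 1, the library richest in white fat markers, held 10 Ucp1 reads.

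Set against Adipoq within the same library, the members split. Ucp1 stood at 3.01, 176 and 4.54 reads per 1000 Adipoq reads in the KO libraries, against 2.70, 11.2 and 25.7 in the WT libraries, both in replicate order. KO replicate 2 was thus far above the rest, and the other 2 KO libraries lay among the WT libraries. Cidea gave 17.1, 300.2 and 9.07 in KO against 0, 0 and 20.3 in WT, and Cox8b 32.2, 245 and 87.3 against 16.2, 25.3 and 43.6. On this scale KO replicate 1 fell below WT replicate 3 for Cox8b, which had been above it as CPM. Cox7a1 had a mean of 26.5 per 1000 Adipoq reads in KO and 30.0 in WT, and Ppargc1a 8.63 and 12.4. Prdm16 ran the other way, at 65.2, 133 and 171 in KO and 431, 441 and 102 in WT. For all 8 genes the 2 genotypes overlapped on this scale. Adipoq is itself one of the genes that differed in level, so these ratios describe composition within a library and were not tested.

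**Figure D3:**
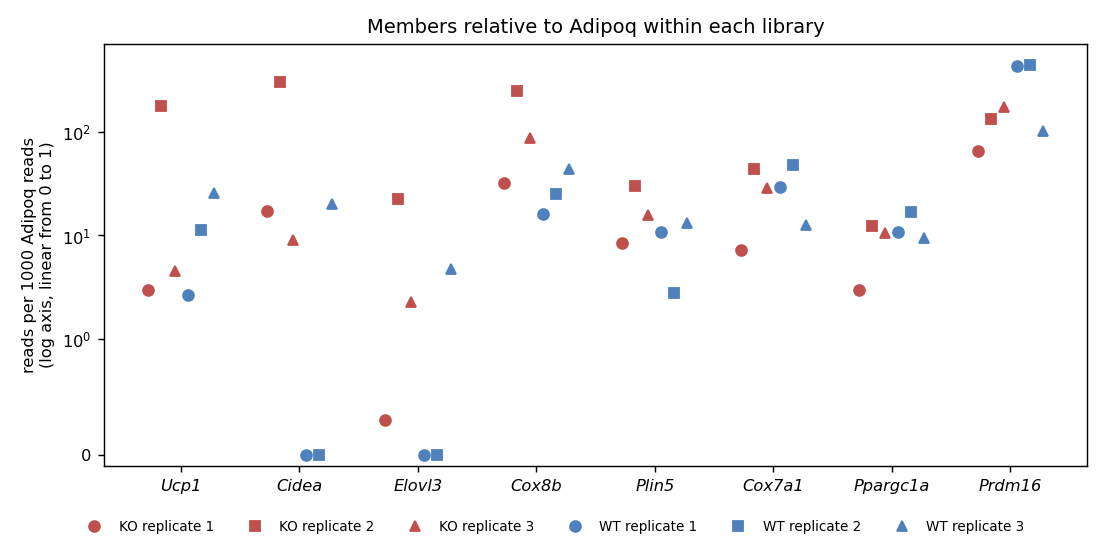
Reads of each gene per 1000 Adipoq reads in the same library (y axis, log scale above 1 and linear from 0 to 1), KO in red and WT in blue with the symbol giving the replicate. KO replicate 2 stands apart for Ucp1 (176) and Cidea (300.2), and KO and WT overlap for every gene.

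Cox8b and Cox7a1 each have a counterpart used in most tissues, which allows their share of the pair to be followed. The common isoforms Cox8a and Cox7a2 had fitted log2 fold changes of 0.14 (SE 0.15) and 0.14 (SE 0.10), and neither passed. Per exon length, Cox8b made up 4.77% of Cox8a plus Cox8b in KO replicate 1 (95% exact binomial interval 3.93 to 5.72), 17.5% in replicate 2 (16.1 to 19.0) and 8.83% in replicate 3 (7.79 to 9.96). In WT replicates 1 to 3 it made up 0.392% (0.144 to 0.851), 0.446% (0.204 to 0.845) and 3.86% (3.04 to 4.82). These intervals cover counting error only. The means were 10.4 ± 6.50% in KO and 1.57 ± 1.99% in WT (SD, n = 3 per genotype). A two-sided exact permutation test gave p = 0.1, the floor for libraries this few, and 0.4 after Benjamini-Hochberg adjustment over 4 such pairs.

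For Cox7a1 the share of Cox7a1 plus Cox7a2 was 6.67 ± 3.35% in KO and 2.41 ± 0.816% in WT (SD, n = 3 per genotype, exact permutation p = 0.2, adjusted 0.4). KO replicate 1 at 2.89% lay below WT replicate 3 at 3.11%, so this share overlapped. The muscle isoform Cox6a2 made up 3.08 ± 2.60% of its pair with Cox6a1 in KO and 2.35 ± 1.02% in WT (SD, n = 3 per genotype, exact permutation p = 0.8, adjusted 0.8). It was highest in KO replicate 3, at 6.0%. The lung isoform Cox4i2 made up 2.24 ± 0.751% and 2.15 ± 0.795% of its pair with Cox4i1 (SD, n = 3 per genotype, exact permutation p = 0.7, adjusted 0.8). Among 10 tested cytochrome oxidase genes outside the 8, 0 were called and 0 had an unadjusted p under 0.05, with a median log2 fold change of 0.17.

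**Figure D4:**
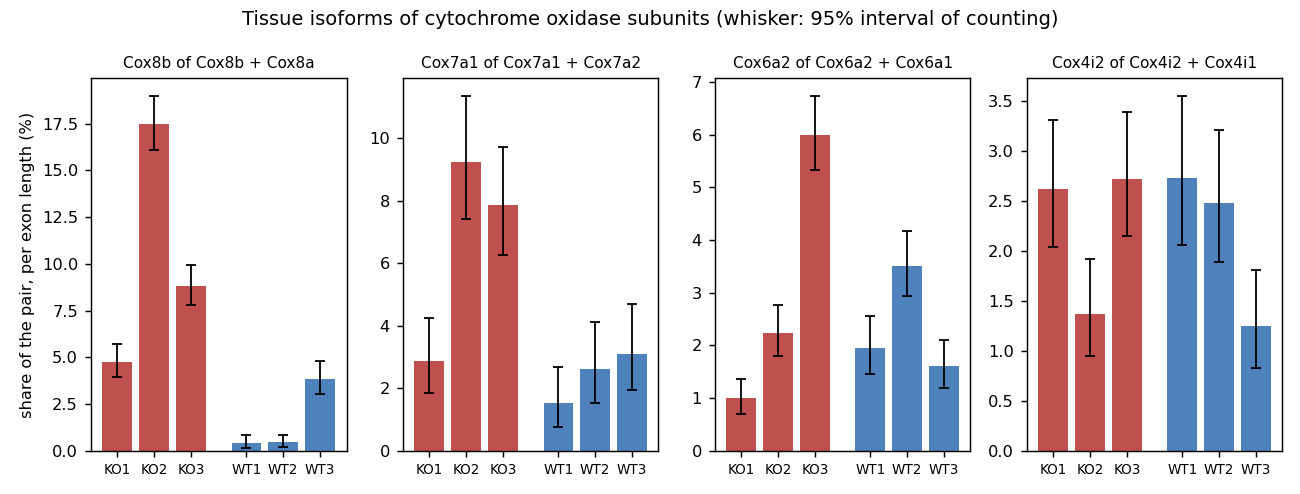
Share of each tissue isoform in its pair, corrected for exon length (y axis, percent), for every library, KO in red and WT in blue, with 95% intervals of counting error. Cox8b lies between 4.77 and 17.5% in KO and between 0.392 and 3.86% in WT, whereas Cox6a2 peaks in KO replicate 3 and Cox4i2 shows no order by genotype.

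Skeletal muscle also makes Cox8b, Cox7a1, Plin5 and Ppargc1a, and muscle transcripts differed between the libraries. The 12 skeletal muscle markers summed to 1520 CPM in KO replicate 3 and to between 9.04 and 25.5 CPM in the other 5 libraries. The 8 cardiac markers summed to 10.5 to 16.4 CPM in KO and 6.79 to 11.0 CPM in WT. Of these 4 were tested, all 4 with a higher fitted level in KO, 0 were called and Ryr2 had an unadjusted p under 0.05. Ryr2 had 105, 80 and 91 reads in KO and 32, 30 and 10 in WT. Tnni3 had 72, 167 and 69 reads in KO and 111, 68 and 71 in WT. Myl4 had 42, 49 and 55 against 37, 31 and 24, and Tnnt2 had 7 to 18 reads per library. Myh6, Myl7, Nppa and Nppb, named after their values were seen, had between 0 and 6 reads per library. The log2 fold changes without KO replicate 3 were 3.08 (SE 0.88) for Cox8b, 1.51 (SE 0.53) for Cox7a1, 2.07 (SE 0.84) for Plin5 and 0.77 (SE 0.69) for Ppargc1a, against 2.95, 1.65, 2.02 and 1.01 with all libraries. That of Prdm16 went from 0.71 to 0.40. The 8 smooth muscle markers summed to 1653 to 2562 CPM in KO and 982 to 1452 CPM in WT, and the part of muscle cells of any kind in these differences was not tested.

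Markers of sympathetic nerve and Schwann cells were uneven as well. Th, the rate-limiting enzyme of noradrenaline synthesis, had 3, 39 and 0 reads in the KO libraries, against 0, 21 and 36 in the WT libraries. Dbh, which completes that synthesis, had 13, 89 and 0 in KO and 0, 18 and 40 in WT. KO replicate 2 and WT replicate 3, the libraries with most Ucp1, were also those with most Dbh and Th, though WT replicate 2 held both with little Ucp1. The 6 markers summed to 17.1 to 65 CPM in KO and 3.32 to 94.6 CPM in WT, and of the 6 tested 0 were called or had an unadjusted p under 0.05. Nerve content was not tested as a factor in the Ucp1 level.

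**Figure D5:**
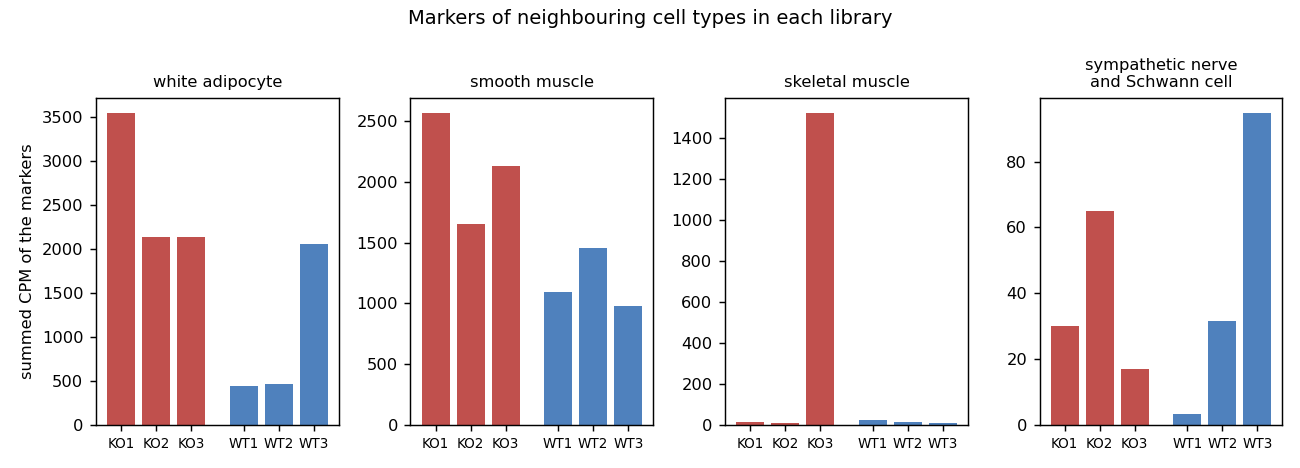
Summed CPM of marker lists for 4 neighbouring cell types (y axis) in each library, KO in red and WT in blue. White adipocyte markers are lowest in WT replicates 1 and 2, skeletal muscle markers reach 1520 CPM in KO replicate 3, and nerve markers are highest in WT replicate 3 and KO replicate 2.

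Upstream of heat production, 12 of 13 genes of beta-adrenergic and thyroid input were tested and 0 were called. At an unadjusted p under 0.05 there were 7, all higher in KO, where 5.23% of all tested genes were, and the list's median log2 fold change was 0.57. Thrb, the beta receptor for thyroid hormone, averaged 8.31 ± 1.70 CPM for KO against 3.18 ± 0.352 CPM for WT (SD, n = 3 per genotype), with a log2 fold change of 1.38 (SE 0.23, edgeR adjusted p = 0.102). Prkar2b, the regulatory subunit of protein kinase A that prevails in fat, had a difference of 1.0 on the log2 scale (SE 0.27), and Npr1, a natriuretic peptide receptor, one of 0.63 (SE 0.18). Npr3, another natriuretic peptide receptor, named after its value was seen, had one of 0.88 (SE 0.30). In each of these the KO libraries lay above the WT libraries. The adipocyte beta3-adrenergic receptor gene Adrb3 had 233, 330 and 200 reads in KO and 30, 32 and 172 in WT, and the deiodinase Dio2, which activates thyroid hormone within brown fat, had 123, 87 and 171 against 74, 37 and 82. In both, WT replicate 3 lay within the KO range as CPM, and neither was called.

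Of 18 tested regulators of brown and beige identity outside the 8, 0 were called, 1 had an unadjusted p under 0.05 as higher and the median log2 fold change was 0.11. That gene was Pparg, the master regulator of all fat cells, at 0.74 (SE 0.20, edgeR adjusted p = 0.208). Ebf1 stood at 0.26 (SE 0.11), Irf4 at -0.61 (SE 0.28) and Bmp7 at -0.59 (SE 0.29), none of which passed. Ppargc1b, the relative of Ppargc1a, stood at 0.10 (SE 0.32). Named after their values were seen, Ebf2 stood at 0.05 (SE 0.17) and Esrra at -0.00038 (SE 0.10). Also named in that way, Ppara had 28 reads in KO replicate 2 and 1 to 9 in the other libraries, and Zic1, a marker of classical brown fat, had 0 to 4 reads per library.

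Among 21 other markers of brown and beige fat, 17 were tested, 0 were called, and 4 had an unadjusted p under 0.05, all higher in KO. These were the amino acid transporter Slc36a2 (log2 fold change 1.22, SE 0.39), the fatty acid transporter Slc27a1 (0.69, SE 0.23), the ion channel P2rx5 (0.81, SE 0.29) and Pank1 of coenzyme A synthesis (0.69, SE 0.24), with adjusted p-values of 0.27 to 0.322 (edgeR). The list's median was 0.14. Of the beige markers, Tmem26 stood at -0.43 (SE 0.33), Tnfrsf9 at -0.23 (SE 0.22) and Eva1a at -0.04 (SE 0.28). Cited1 had 1 read in 1 library and 0 in the rest. Tbx1, listed with the regulators above, stood at 0.11 (SE 0.43). These genes, and Otop1, were named after their values were seen. Otop1, a proton channel abundant in brown fat, had 23, 58 and 8 reads in KO and 0, 1 and 9 in WT and was not tested.

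Routes of heat production that need no UCP1 did not share one direction. Of 16 genes 13 were tested, 0 were called, 3 were higher and 1 lower at an unadjusted p under 0.05 (6.08% of all tested genes were lower by that measure), and the median log2 fold change was 0.14. Ucp2, a relative of Ucp1 common in leukocytes, was the lower one, at 643 ± 54.1 CPM for KO against 869 ± 117 CPM for WT (SD, n = 3 per genotype), a log2 fold change of -0.43 (SE 0.15, edgeR adjusted p = 0.306). T cell markers were lower beside it: all 6 had an unadjusted p under 0.05 as lower, 0 were called, the median log2 fold change was -0.64, and they summed to 112 to 123 CPM in KO and 164 to 208 CPM in WT. The 6 macrophage markers summed to 1634 to 2144 CPM in KO and 1931 to 2606 CPM in WT, with 0 called and 1 in each direction at an unadjusted p under 0.05. The 6 endothelial markers (505 to 650 CPM in KO, 481 to 694 in WT) and the 5 mesothelial markers (5.11 to 7.47 in KO, 2.72 to 17.2 in WT) had 0 at that level. The part of these cells in the Ucp2 level was not tested. Ucp3, the muscle and brown fat relative, had 44, 70 and 74 reads in KO and 12, 2 and 53 in WT, with a log2 fold change of 1.32 (SE 0.74). The 3 higher genes were Ryr2, Slc25a4 and Atp2a1. The calcium release channel Ryr2 stood at 1.79 (SE 0.41) and the adenine nucleotide carrier Slc25a4 at 0.33 (SE 0.14). Atp2a1, the calcium pump of fast muscle, stood at 3.90 (SE 1.48). It had 1863 reads in KO replicate 3 and 10 to 39 in the others, so its value rests on that library.

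The lipid droplet and lipolysis genes were tested for 10 of 11, with 0 called, 2 at an unadjusted p under 0.05 as higher, 10 with a higher fitted level in KO and a median log2 fold change of 0.61. G0s2, an inhibitor of adipose triglyceride lipase, stood at 1.29 (SE 0.23, edgeR adjusted p = 0.102) and Mgll, monoglyceride lipase, at 0.77 (SE 0.25), both with all KO libraries above all WT libraries. The Cidea relative Cidec had 2590, 2451 and 2329 reads in KO and 286, 445 and 1956 in WT, with a log2 fold change of 1.30 (SE 0.59). Of the perilipins, Plin1 stood at 1.13 (SE 0.76), Plin4 at 1.25 (SE 0.59), Plin2 at 0.30 (SE 0.22) and Plin3 at 0.05 (SE 0.14), beside 2.02 for Plin5. Cideb had 1 to 8 reads per library. Among 5 tested elongases outside the 8, the largest value was that of Elovl6, at 0.75 (SE 0.34), and 0 had an unadjusted p under 0.05.

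Of 7 tested secreted products of brown fat, 1 had an unadjusted p under 0.05. This was Nrg4, a neuregulin released by brown adipocytes, with 140, 162 and 134 reads in KO and 52, 32 and 114 in WT (log2 fold change 0.99, SE 0.40, edgeR adjusted p = 0.388). Vegfa stood at 0.34 (SE 0.19), Gdf15 at 0.51 (SE 0.32) and Metrnl at -0.18 (SE 0.21). Fgf21 and Bmp8b, named after their values were seen, had at most 4 reads in any library.

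Across the 6 libraries, log2 CPM of Ucp1 followed Elovl3 (Pearson r = 0.96) and Cidea (0.902) more closely than Prdm16 (0.16). By rank (Spearman) these were 0.886, 0.886 and 0.486. Elovl3 and Cidea had 0 reads in WT replicates 1 and 2, where the prior count sets their log2 CPM. Cox8b followed Plin5 (0.954), Cidea (0.934) and Ppargc1a (0.921). The tested genes most like Ucp1 were Afap1l2 (0.986), Dlat (0.967) and Cldn5 (0.966), with 9 genes over 0.95. Among those most like Cox8b were Spef1 (0.994) and Fam189a2 (0.99), among those most like Cox7a1 were Vsig8 (0.993) and F7 (0.989), and those most like Prdm16 were Nus1, Asb14 and Spry1 (0.99 to 0.992). Rundc3a, Jmjd8 and Gm15635 (0.975 to 0.986) were nearest to Ppargc1a, and Gm7115, Clec4n and Prkar2b (0.986 to 0.989) to Plin5. These coefficients rest on 6 points that share library composition and are descriptions only.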

How the data were processed

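Poly-A RNA from abdominal aorta was sequenced in 6 libraries, 3 KO and 3 WT, per the labels' protocols. The authors deposited raw whole-number read counts per gene. The submitters' processing notes name HISAT2 2.0.5, featureCounts 1.5.0-p3 and GRCm38. For strand, annotation release and multi-mapping reads, the settings are not given in the sources. Between 0 and 1.17% of the exon bases of the 8 genes overlap another gene (GENCODE mouse release 21).

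Counts were fitted in R 4.3.3 with edgeR 4.0.16 (filterByExpr, TMM, quasi-likelihood test of KO against WT, Benjamini-Hochberg over 16237 genes, threshold 0.05). The standard error is the log2 fold change divided by the square root of F. CPM used TMM-scaled libraries, and log2 CPM a prior count of 2. The fit was tested on simulated data. Library pairs differed by a chi-square of 25.6 to 81 per degree of freedom, so none was a repeat.

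The members, gene lists and tests were chosen with earlier results of these data known. Genes named were the 8 members, their family counterparts, up to 4 genes of each list by smallest unadjusted p, and the 3 tested genes most correlated with each member above 0 in all libraries. Not every gene so taken is reported. Alternatives used other scalings, other filters, DESeq2 1.42.0, limma-voom (limma 3.58.1), a block for replicate number, and fits leaving out 1 library. Figures used matplotlib 3.10.9.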

Additional observations from a re-analysis of the deposited data

How the results depend on the processing

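With all 6 libraries edgeR called 2 genes and 0 of the 8 members, 1836 genes and 5 members having an unadjusted p under 0.05. DESeq2 size factors, upper quartile factors, library size alone and the filter of at least 10 counts in 3 libraries left both counts at 2 and 0. With no filter on low counts edgeR called 644 of 29498 genes and 4 members (Cidea, Cox8b, Cox7a1 and Plin5). DESeq2's own test called 460 of 15735 genes and 1 member (Cox7a1), giving no p for Ucp1. The cause of these higher counts was not tested. Limma-voom called 0 genes and 0 members, with 1845 genes at an unadjusted p under 0.05. With the replicate block edgeR called 0 genes and 0 members, with 1606 at an unadjusted p under 0.05. Same-numbered KO and WT libraries had correlations of deviations of -0.101, -0.0622 and -0.12, and none of the 6 correlated best with its own number. Deviations from a mean of 3 libraries are tied to each other, so these values cannot exclude a shared day or batch. Leaving out 1 library gave 0 to 155 genes called and 0 to 2 members. The 155, of 16656 tested, and the 2 (Cox8b and Plin5) came from the fit without WT replicate 3. Of 99 values of single members under alternatives, 1 changed sign (Ucp1, whose log2 fold change ran from -0.70 without KO replicate 2 to 5.25 without WT replicate 3), 7 passed where the reported fit did not, 89 kept their direction and their side of the threshold, and 2 (Ucp1 and Elovl3 with DESeq2) kept their direction and had no adjusted p. Depth limits Elovl3, Ppargc1a and Plin5 most, which had at most 54 reads in any library.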
